A study of Mus musculus with 4 samples.

Results

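The aldosterone and epithelial sodium channel genes are 9 genes of electrogenic sodium absorption, chosen by name: the channel subunits Scnn1a, Scnn1b and Scnn1g, the steroid-clearing enzyme Hsd11b2, the kinase Sgk1, the ubiquitin ligase Nedd4l, the channel-activating protease Prss8, the corticosteroid-induced Tsc22d3 and the sodium pump subunit Atp1b1. All 9 had a row among the 46095 gene symbols of the deposited count table, and all 9 had enough counts to be tested. They were proposed with results of the same genotype comparison in view. Their levels and differences are therefore given as a description, and the calls on them are no independent evidence for any change.

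The libraries came from colon of C57BL/6 mice at postnatal day 21, 2 from wild-type mice (WT 1 and WT 2) and 2 from Esr2-/- mice, knockouts of the gene of estrogen receptor beta (Esr2-KO 1 and Esr2-KO 2). The design text speaks of triplicates, and any further library was not analysed here. The labels name no treatment, no segment of the colon, no hour of collection and no deleted exon. Whether libraries of 1 genotype are from separate animals is not stated, so p-values measure only the spread between these libraries.

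In absorbing epithelia, sodium enters through the apical epithelial sodium channel (ENaC), built from alpha, beta and gamma subunits encoded by Scnn1a, Scnn1b and Scnn1g, and leaves through the basolateral sodium pump. Aldosterone acts through the mineralocorticoid receptor and induces, among others, Sgk1, which restrains the ubiquitin ligase Nedd4l from removing the channel from the membrane. Hsd11b2 inactivates glucocorticoids and thereby leaves the receptor to aldosterone. Proteases such as prostasin (Prss8) cleave the channel and open it. In the colon this route is best known from the distal segment, where in rodents aldosterone acts chiefly on transcription of the beta and gamma subunits, whereas the proximal segment relies more on sodium-proton exchange.

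Totals ran from 30826790 to 33709643 counts per library, and 3 counts, the floor used here, equalled 0.0826 to 0.114 CPM (counts scaled to library size). By edgeR's quasi-likelihood test, 462 of 17169 genes, or 2.69%, had a Benjamini-Hochberg adjusted p under 0.05, of which 223 were higher and 239 lower in Esr2-KO. With library totals in place of the TMM scaling, the split was 208 higher and 487 lower. The 21 listed pancreatic acinar genes took 0.0495% and 0.0546% of all counts in WT 1 and WT 2, but 0.191% in Esr2-KO 1 and 19.0% in the other Esr2-KO library. Counts of the Esr2-KO libraries differed more from each other than those of the WT libraries (chi-square per degree of freedom 478 against 39.7). That figure included the acinar genes, on unscaled totals, and was not computed without them, so it is no measure of spread in the remaining genes. Esr2 itself was barely detected, with 21 counts in WT 1, 13 in WT 2, 6 in Esr2-KO 1 and 16 in Esr2-KO 2. The groups overlapped, with a log2 fold change of -0.32 ± 0.77 (SE), so Esr2 counts do not check the genotype labels, and the sign turned without WT 1 (0.04) or without Esr2-KO 1 (0.35). The 12 listed epithelial markers summed to 10667, 9698, 11081 and 11089 CPM in WT 1, WT 2, Esr2-KO 1 and Esr2-KO 2, a sum in which Krt8 alone was 3322 to 4037 CPM. Single markers went both ways. Of the 12, 1 fell (beside 1.39% of all genes), Cdx2, from 199 and 165 CPM in WT to 60.9 and 27.9 CPM in Esr2-KO. Krt20 was also lower without overlap (-0.65 ± 0.23, not past), and Cdh1, Cdx1 and Elf3 were higher without overlap. In all, 6 markers were higher and 2 lower without overlap, beside 27.0% and 27.7% of all genes. Of 7 kidney tubule genes, Aqp2, Umod and Slc12a1 had at most 2 counts in any library and Slc12a3, Calb1 and Avpr2 at most 10. The one tested was Slc34a1, with 5, 22, 29 and 22 counts (log2 fold change 1.13 ± 0.76, not past).

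The 3 subunit genes differ in place. Upstream sequences are shown for Scnn1g and Scnn1b, and Scnn1a had no upstream window in the source used here. Sgk1 is shown beside them because its upstream sequence holds a palindromic corticosteroid response element. Scnn1g (7:121734420-121768482) and Scnn1b (7:121865038-121918728) lie on the forward strand of chromosome 7, 96.6 kb apart, and Scnn1a (6:125314271-125344943) is on the forward strand of chromosome 6, all in GRCm38 by RefSeq. The upstream windows below run 5′ to 3′ on the forward strand from RefSeq (GRCm38.p6). Scnn1g is shown as chr7:121734229-121734419, Scnn1b as chr7:121864788-121865037 and Sgk1 as chr10:21993640-21993889, before a transcript that starts at 21993890. Capitals mark matches to AGAACA or TGTTCT, the arms of the element, searched on both strands, and the 3 bases between the arms of the full element.
Scnn1g: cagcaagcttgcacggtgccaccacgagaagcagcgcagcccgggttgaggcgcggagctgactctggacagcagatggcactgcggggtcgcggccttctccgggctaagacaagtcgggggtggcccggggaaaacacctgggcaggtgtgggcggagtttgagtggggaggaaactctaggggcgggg
Scnn1b: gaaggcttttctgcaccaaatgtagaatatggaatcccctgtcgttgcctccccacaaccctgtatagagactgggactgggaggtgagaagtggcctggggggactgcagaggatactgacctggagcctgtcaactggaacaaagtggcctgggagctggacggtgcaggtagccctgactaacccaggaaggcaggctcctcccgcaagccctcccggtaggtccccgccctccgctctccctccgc
Sgk1: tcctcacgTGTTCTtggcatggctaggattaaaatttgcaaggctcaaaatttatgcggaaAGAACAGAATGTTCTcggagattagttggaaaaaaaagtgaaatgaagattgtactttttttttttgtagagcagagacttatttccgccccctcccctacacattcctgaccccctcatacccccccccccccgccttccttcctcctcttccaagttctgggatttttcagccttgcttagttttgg

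Of the 9 genes, 5 had upstream windows in the RefSeq promoter table: Scnn1b, Scnn1g, Sgk1, Tsc22d3 and Atp1b1. They had 12 windows in all because Sgk1 has 6 alternative starts and Tsc22d3 has 3. The Sgk1 window above holds AGAACA and TGTTCT with 3 bases between them, beginning 189 bases before the transcript start, and a further TGTTCT at 242 bases. That spaced palindrome occurred in 3 of 32851 windows of 250 bases (0.00913%). An arm alone occurred in 16.1% of the windows, so it is common by comparison. Among the 12 windows, 4 held an arm, 3 of Sgk1 and 1 of Tsc22d3, and the windows of Scnn1b, Scnn1g and Atp1b1 held none. The palindromic estrogen response element, GGTCA and TGACC with 3 bases between them, occurred in 21 windows (0.0639%) and in none of the 12. A match describes these letters only and is not a measured binding site.

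The channel subunits were higher in both Esr2-KO libraries than in both WT libraries, and the gamma subunit differed most. Scnn1g, the gamma subunit, had 1 and 36 counts in WT 1 and WT 2 and 315 and 516 in Esr2-KO 1 and Esr2-KO 2. These are 0.0275, 1.03, 9.21 and 19.6 CPM. The groups did not overlap, but the libraries of each genotype differed too, by a ratio of 37.6 between WT 2 and WT 1 (exact 95% counting interval 6.33 to 1525) and of 2.13 between Esr2-KO 2 and Esr2-KO 1 (1.84 to 2.45). Summed counts of Esr2-KO were 26.4 times those of WT at equal scaled totals (19.0 to 37.7), and 13.3 times those of WT 2 alone (9.50 to 19.1). These intervals cover counting error only. The log2 fold change of 4.76 ± 0.96 (SE) did not pass the threshold, and over the alternatives it ran from 3.79 without WT 1 to 8.86 without WT 2, passing in both.

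Scnn1b, the beta subunit, measured 5.40 and 6.84 CPM in WT 1 and WT 2 and 12.8 and 15.3 CPM in Esr2-KO 1 and Esr2-KO 2, from 196 to 439 counts. Both Esr2-KO values lay above both WT values, and Scnn1b rose by 1.20 ± 0.22 (SE) on the log2 scale, 2.30-fold. Scnn1a, the alpha subunit, measured 77.8 and 71.3 CPM in the WT libraries, against 112 and 133 CPM in the Esr2-KO libraries, from 2479 to 3829 counts. It rose by 0.71 ± 0.13 (SE) on the log2 scale, 1.64-fold, again with no overlap. Beside the 2.69% of all genes, 2 of the 9 genes were past the threshold, both higher, a count from which nothing is read here since the contrast helped to choose the genes. Just inside the threshold were Scnn1a with an adjusted p of 0.0456 and Scnn1b with 0.0470, and just outside were Hsd11b2 with 0.0549 and Scnn1g with 0.0575 (edgeR). The calls depended on single libraries: 0 of the 9 genes passed without Esr2-KO 2, Scnn1g alone passed without WT 1 or without WT 2, and 4 passed without Esr2-KO 1. Without Esr2-KO 2, the library rich in acinar counts, the log2 fold changes of Scnn1a, Scnn1b and Scnn1g were 0.59, 1.07 and 4.12. With the acinar genes left out before scaling they were 0.73, 1.21 and 4.77.

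**Figure D1:**
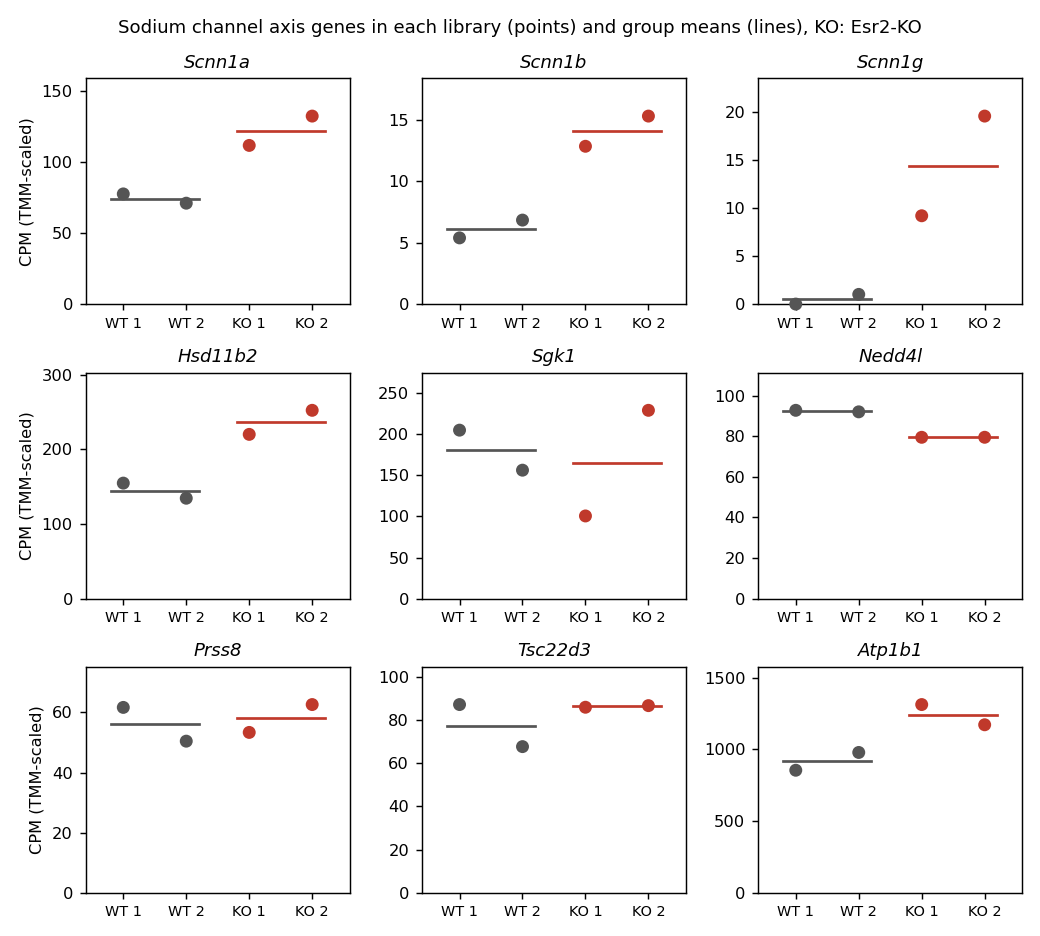
CPM on TMM-scaled totals (vertical axis, linear, from 0) of each of the 9 genes in WT 1, WT 2, Esr2-KO 1 and Esr2-KO 2, one panel per gene, with points for libraries and horizontal lines for the means of 2 libraries. Scnn1a, Scnn1b, Scnn1g, Hsd11b2 and Atp1b1 are higher in both Esr2-KO libraries, Nedd4l is lower in both, and Sgk1, Prss8 and Tsc22d3 overlap.

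Divided by exon length, the subunits were far from equal. Scnn1a stood at 18.8 and 17.2 CPM per kb in WT libraries, and at 27.1 and 32.1 in Esr2-KO libraries. Scnn1b stood at 2.05 and 2.60 CPM per kb in WT libraries, and at 4.87 and 5.81 in Esr2-KO libraries. Scnn1g, at 0.0092 and 0.346 CPM per kb in WT, reached 3.08 and 6.54 CPM per kb in Esr2-KO, close to Scnn1b. The ratio of Scnn1b to Scnn1g per kb was 7.51 in WT 2, 1.58 in Esr2-KO 1 and 0.887 in Esr2-KO 2. The 1 count of Scnn1g in WT 1 is too few for such a ratio.

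As shares of the summed subunit level per kb, Scnn1a made up 90.1%, 85.4%, 77.3% and 72.2% in WT 1, WT 2, Esr2-KO 1 and Esr2-KO 2. The Scnn1g share was 0.0441%, 1.71%, 8.79% and 14.7% in the same libraries. Scnn1b varied less, from 9.81% to 13.9%. Alpha was the most abundant subunit mRNA in all 4 libraries, with a lower share in both Esr2-KO libraries than in either WT library, and the gamma share was higher in both.

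**Figure D2:**
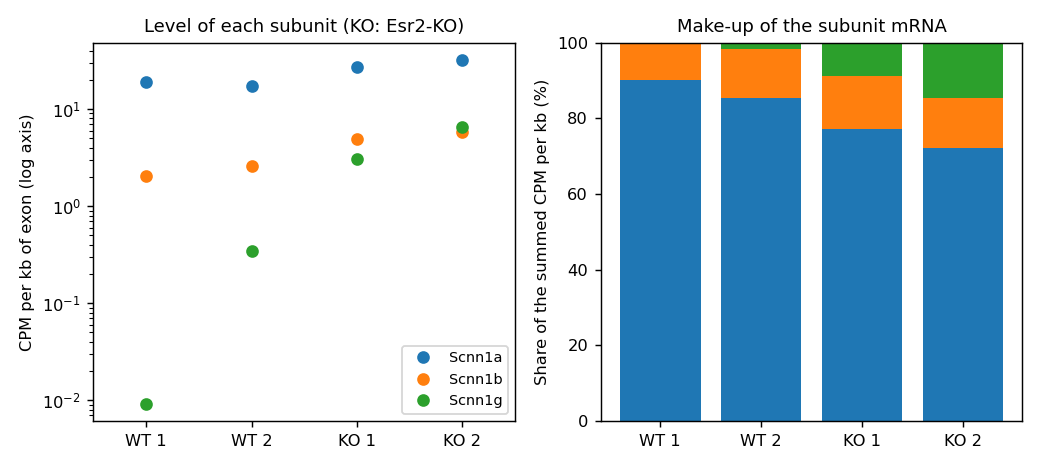
Left, level of each ENaC subunit in CPM per kb of exon (log axis) in each library. Right, share of each subunit (percent, stacked) in the sum of the 3 levels, where the Scnn1g share runs from 0.0441% in WT 1 to 14.7% in Esr2-KO 2.

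Hsd11b2 (8:105518746-105523988, forward strand) measured 155 and 134 CPM in the WT libraries, against 220 and 252 CPM in the Esr2-KO libraries. The groups did not overlap. The log2 fold change was 0.71 ± 0.14 (SE), about the size of that of Scnn1a, and did not pass the threshold. It passed with limma-voom, with DESeq2, with no low-count filter and without Esr2-KO 1. Per kb, Hsd11b2 ranked next after Atp1b1 in both genotypes, with means of 78.5 CPM per kb in WT and 128 CPM per kb in Esr2-KO.

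Sgk1 (10:21882184-21999903, forward strand), the kinase whose upstream element is printed above, did not separate the genotypes. It measured 205 and 156 CPM in WT, 101 CPM in Esr2-KO 1 and 229 CPM in Esr2-KO 2. The Esr2-KO libraries held both the lowest and the highest value, 2.28-fold apart. The log2 fold change was -0.13 ± 0.36 (SE), and its sign turned without WT 1 (0.08) or without Esr2-KO 1 (0.35). Tsc22d3 (X:140539528-140600522, reverse strand), which encodes the glucocorticoid-induced leucine zipper protein and is also induced by aldosterone, measured 87.2 and 67.7 CPM in the WT libraries, against 85.9 and 86.7 CPM in the Esr2-KO libraries. Its Esr2-KO values lay between the WT values, with a log2 fold change of 0.16 ± 0.14 (SE), or -0.01 with library totals.

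Nedd4l (18:64884480-65217826, forward strand), the ligase that removes ENaC, measured 92.8 and 92.0 CPM in WT and 79.5 CPM in each Esr2-KO library. It was the 1 gene of the 9 with both Esr2-KO values below both WT values, and its log2 fold change of -0.22 ± 0.10 (SE) did not pass the threshold. Prss8 (7:127925717-127930149, reverse strand) measured 61.7 and 50.4 CPM in the WT libraries, against 53.4 and 62.6 CPM in the Esr2-KO libraries. These values overlapped, with a log2 fold change of 0.05 ± 0.15 (SE) that turned to -0.13 with library totals.

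Atp1b1 (1:164437099-164458355, reverse strand), the beta subunit of the sodium pump, was the most abundant of the 9 genes, at 854 and 978 CPM in the WT libraries, against 1312 and 1171 CPM in the Esr2-KO libraries. Both Esr2-KO values were above both WT values, and the log2 fold change was 0.44 ± 0.20 (SE), short of the threshold. Exons of Atp1b1 share 575 bases with Nme7 and exons of Prss8 share 122 bases with Kat8, each on the opposite strand, and the sources used here do not say whether counting used strand. Nme7 had at most 488 counts and Kat8 at most 508 in a library. Exons of Nedd4l share 277 bases with an antisense transcript that was not analysed here.

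Across the 9 genes, the groups did not overlap for 6, with 5 higher and 1 lower in Esr2-KO. Of all genes tested, 54.7% did not overlap (27.0% higher and 27.7% lower). The median log2 fold change of the 9 was 0.44, against -0.0031 over all genes tested. The order of levels per kb in WT ran from Atp1b1 (mean 297 CPM per kb) through Hsd11b2, Sgk1, Prss8, Scnn1a, Tsc22d3, Nedd4l and Scnn1b to Scnn1g (0.178 CPM per kb). In that order Sgk1 overlapped with Prss8, and Scnn1a with Tsc22d3. In Esr2-KO the lower end was Tsc22d3 at 19.9 CPM per kb, then Scnn1b at 5.34, Scnn1g at 4.81 and Nedd4l at 4.50 CPM per kb. Among those last 3 the neighbours overlapped, as they did among Sgk1, Prss8 and Scnn1a further up. Nedd4l has many alternative exons, and its level is divided by their union of 17.659 kb, which lowers the value per kb.

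Beyond the 9 genes, 80 other genes of corticosteroid response, ENaC control and ion transport were listed in 8 groups, of which 77 could be tested. Of these, 3 rose (3.90%) and 0 fell, beside 1.30% and 1.39% of all genes. Ndrg2, Usp2 and Kcnk5 were the 3. In the 77, the groups did not overlap for 51, with 30 higher and 21 lower (54.7% of all genes did not overlap). The median log2 fold change was 0.12, and -0.04 with library totals, a scaling that moved the median of all genes to -0.17.

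The receptors and their steroid handling had 9 genes tested and 0 called. The share called over all genes, for this group and those below, was 2.69%. At an unadjusted p under 0.05 there were 4. The share of all genes under that cutoff was not counted, so nothing is read from this count or those of the groups below. Nr3c2, the mineralocorticoid receptor, measured 60.4 and 85.3 CPM in the WT libraries, against 106 and 93.9 CPM in the Esr2-KO libraries, a log2 fold change of 0.45 ± 0.18 (SE). Nr3c1, the glucocorticoid receptor, measured 128 and 135 CPM in the WT libraries, against 109 and 92.8 CPM in the Esr2-KO libraries, with -0.38 ± 0.13 (SE). For neither gene did the groups overlap, the directions were opposite, and neither passed (adjusted p 0.217 and 0.162, edgeR). Hsp90aa1, a chaperone of these receptors, had the smallest p of the group, at 320 and 246 CPM in the WT libraries, against 208 and 176 CPM in the Esr2-KO libraries (-0.56 ± 0.17, adjusted p 0.142).

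Among 13 other corticosteroid-induced genes, 1 rose, beside 1.30% of all genes. A positive log2 fold change was found for 12, where 49.7% of all genes had one, and the median was 0.75. Ndrg2, an aldosterone-induced gene, measured 63.5 and 72.1 CPM in the WT libraries, against 132 and 145 CPM in the Esr2-KO libraries. It rose by 1.03 ± 0.12 (SE) on the log2 scale (adjusted p 0.0204, edgeR), and missed the threshold only without WT 1 (0.0633) among 14 alternatives. Zbtb16 measured 2.29 and 2.50 CPM in the WT libraries, against 8.30 and 5.69 CPM in the Esr2-KO libraries, just short of the threshold (adjusted p 0.0517). Per1, also a clock gene, measured 9.75 and 16.8 CPM in the WT libraries, against 29.3 and 26.8 CPM in the Esr2-KO libraries (adjusted p 0.0844). Without Esr2-KO 2 the median of the group was 0.36.

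Some corticosteroid-responsive genes were high in Esr2-KO 2 and not in Esr2-KO 1. Sgk1 was also highest in Esr2-KO 2, but its 229 CPM there was near the 205 CPM of WT 1, and Esr2-KO 1 was lowest at 101 CPM. Klf15 measured 3.83, 2.50, 3.83 and 19.7 CPM in WT 1, WT 2, Esr2-KO 1 and Esr2-KO 2. Fkbp5, an immunophilin that dampens the glucocorticoid receptor, measured 1.46, 0.604, 0.848 and 8.12 CPM in the same order, and its log2 fold change of 2.10 ± 0.98 (SE) became -0.28 without Esr2-KO 2. Tsc22d3 and Per1 were alike in the 2 Esr2-KO libraries, and Zbtb16 was higher in Esr2-KO 1 (8.30 CPM) than in Esr2-KO 2 (5.69 CPM). Klf15 and Fkbp5 were picked from their lists after their values were seen. Esr2-KO 2 is the library with 19.0% acinar counts, and the part of those cells in the Sgk1, Klf15 and Fkbp5 values was not tested.

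The kinases and ubiquitin regulators of ENaC had 18 genes tested, of which 1 rose (beside 1.30% of all genes). The median log2 fold change was -0.02. Usp2, a deubiquitinase that acts on the channel and whose transcript follows the clock, measured 6.83 and 9.83 CPM in the WT libraries, against 24.7 and 17.9 CPM in the Esr2-KO libraries. It rose by 1.36 ± 0.25 (SE) on the log2 scale (adjusted p 0.0487, edgeR). The call ended under 5 of 14 alternatives, with adjusted p up to 0.185. Of 17 listed clock genes 4 rose and 3 fell, beside 1.30% and 1.39% of all genes, and the part of the hour of collection in the Usp2 and Per1 values was not tested.

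The proteases that cleave ENaC and their inhibitors had 8 genes tested and 0 called, with 3 at an unadjusted p under 0.05. Spint1, which inhibits prostasin and matriptase, measured 150.1 and 181 CPM in the WT libraries, against 276 and 262 CPM in the Esr2-KO libraries, a log2 fold change of 0.70 ± 0.14 (SE, adjusted p 0.0575 by edgeR). Serpine2, protease nexin 1, measured 32.7 and 27.7 CPM in the WT libraries, against 19.2 and 17.1 CPM in the Esr2-KO libraries (-0.73 ± 0.15, adjusted p 0.0608). Prss22 had 3 counts in all and was not tested.

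The sodium pump and its FXYD regulators had 12 genes tested and 0 called, with 3 at an unadjusted p under 0.05 and a median of 0.06, or -0.13 with library totals. Fxyd4, a pump regulator known as corticosteroid hormone-induced factor, had 0, 185, 1082 and 1403 counts in WT 1, WT 2, Esr2-KO 1 and Esr2-KO 2. These are 0, 5.32, 31.6 and 53.2 CPM. As for Scnn1g, WT 1 was at or under the floor and the other libraries were not, and the log2 fold change of 4.0 ± 1.2 (SE) did not pass (adjusted p 0.134, edgeR). Without WT 1 it was 2.99 and without WT 2 it was 13.4, and it passed in both, as it did without Esr2-KO 1 and with no low-count filter. Over all 14 alternatives its adjusted p ran from 0.000102 to 0.525.

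The potassium channels and pump of the colon had 6 genes tested, of which 1 rose (beside 1.30% of all genes). The median log2 fold change was 0.51. Kcnk5, a background potassium channel, measured 74.3 and 80.1 CPM in the WT libraries, against 120.4 and 117 CPM in the Esr2-KO libraries. It rose by 0.62 ± 0.11 (SE) on the log2 scale (adjusted p 0.0437, edgeR), and the call ended under 5 of 14 alternatives, with adjusted p up to 0.293. Atp12a, the colonic proton-potassium pump that aldosterone induces, measured 11.0, 169, 708 and 1025 CPM in WT 1, WT 2, Esr2-KO 1 and Esr2-KO 2. Its log2 fold change of 3.26 ± 1.07 (SE) did not pass (adjusted p 0.157, edgeR) and passed without WT 1, without WT 2, without Esr2-KO 1 and with no low-count filter. Kcne3, the beta subunit of a basolateral channel, measured 202 and 237 CPM in the WT libraries, against 411 and 336 CPM in the Esr2-KO libraries (0.77 ± 0.17, adjusted p 0.0663).

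The route of electroneutral sodium chloride absorption and chloride secretion had 7 genes tested and 0 called, with 5 at an unadjusted p under 0.05 and no overlap in any of the 7, 3 of them higher and 4 lower, where 54.7% of all genes did not overlap. Slc9a3, the apical sodium-proton exchanger, measured 283 and 164 CPM in the WT libraries, against 104 and 34.6 CPM in the Esr2-KO libraries, a log2 fold change of -1.69 ± 0.50 (SE, adjusted p 0.128 by edgeR). It ran from -2.69 without Esr2-KO 1 to -1.10 without Esr2-KO 2, and passed without Esr2-KO 1, with no low-count filter and with the replicate number as a block. Slc26a3, the chloride-bicarbonate exchanger that works beside it, lay in the other direction, at 664 and 480.5 CPM in the WT libraries, against 1087 and 905 CPM in the Esr2-KO libraries (0.80 ± 0.23, adjusted p 0.119).

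**Figure D3:**
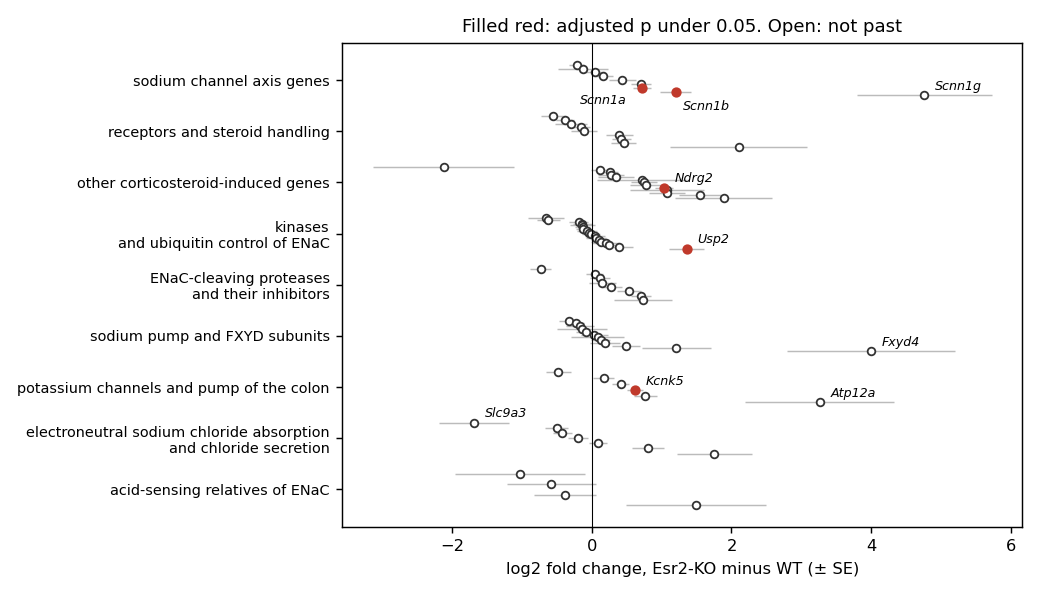
log2 fold change of Esr2-KO against WT (horizontal axis, bars are ± 1 SE) of the 9 genes and of the 77 other tested genes by group. Filled red points passed an adjusted p of 0.05 (Scnn1a, Scnn1b, Ndrg2, Usp2 and Kcnk5), open points did not, and Scnn1g, Fxyd4 and Atp12a lie farthest to the right with wide bars.

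The genes whose profile over the 4 libraries was nearest to the mean profile of the 3 subunits were Slc46a1, Itih2, Rims4, B4galnt3 and Slc36a1, among 11509 genes whose mean log2 CPM was 2 or more. Their root-mean-square differences from it were 0.074, 0.083, 0.091, 0.134 and 0.156 in log2 CPM. Scnn1a, Scnn1b and Scnn1g themselves lay farther from that mean, at 1.01, 0.72 and 1.72. Likeness to the mean is therefore not likeness to each subunit. Slc46a1, the proton-coupled folate transporter, measured 5.89, 13.3, 43.6 and 55.7 CPM in WT 1, WT 2, Esr2-KO 1 and Esr2-KO 2. As with Scnn1g, WT 1 was lowest and Esr2-KO 2 highest. The likeness over 4 libraries is a description.

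Hox genes, which mark position along the body, were mostly higher in Esr2-KO in groups 10 to 13 and mostly lower in groups 4 to 9. Of the 8 tested in groups 10 to 13, 6 had a positive log2 fold change (median 2.84) and 2 a negative one. Of the 15 tested in groups 4 to 9, 13 had a negative one (median -1.30) and 2 a positive one. Over all genes tested, 49.7% were positive. Of 12 listed Hox genes of groups 10 to 13, which are used toward the tail end, 8 were tested. Hoxb13 and Hoxd12 rose and Hoxa11 fell (2 and 1 of the 8, beside 1.30% and 1.39% of all genes), and the summed level was 186, 273, 871 and 978 CPM in WT 1, WT 2, Esr2-KO 1 and Esr2-KO 2. Hoxb13 measured 72.8, 153, 616 and 676 CPM in the same order, and Hoxa11 21.5, 19.4, 9.36 and 7.66 CPM. The calls of Hoxa11 and of Cdx2 ended without WT 1 and without WT 2. Hoxd13, at 1.29, 19.2, 121 and 155 CPM, did not pass (adjusted p 0.0979, edgeR). Of 19 Hox genes of groups 4 to 9, 15 were tested, 0 rose and 3 fell, with sums of 189, 229, 131 and 123 CPM. The part of the sampled colon segment in the Scnn1g, Fxyd4, Atp12a and Slc9a3 values was not tested, and genotype and segment cannot be told apart with these labels. In whole tissue, fewer cells of a type and less RNA per cell cannot be told apart either.

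**Figure D4:**
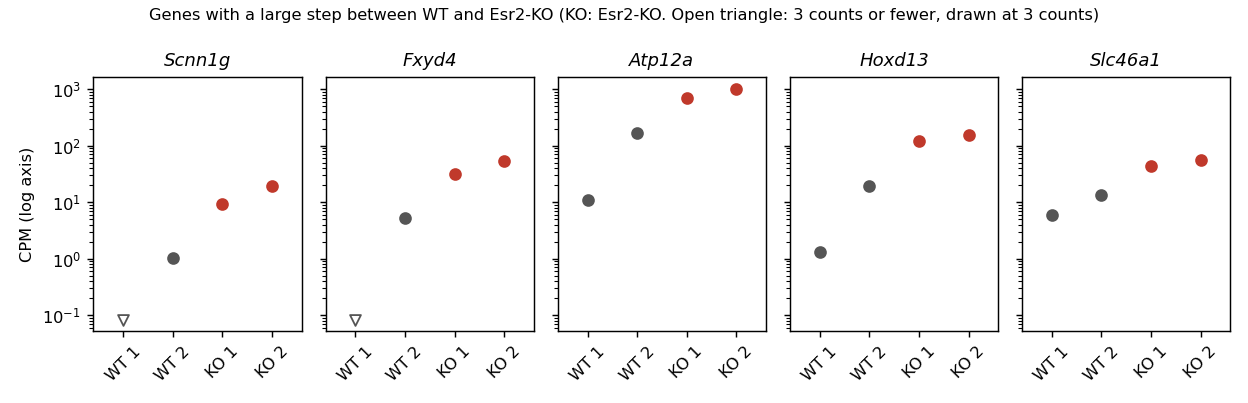
CPM (log axis) of Scnn1g, Fxyd4, Atp12a, Hoxd13 and Slc46a1 in WT 1, WT 2, Esr2-KO 1 and Esr2-KO 2, with an open triangle for a library at 3 counts or fewer, drawn at the level of 3 counts. All 5 genes are lowest in WT 1, higher in WT 2, and highest in the Esr2-KO libraries. They were chosen for the figure with their values known, so the shared order is a description only.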

How the data were processed

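Colon RNA of 4 mouse libraries, 2 per genotype, was compared. Per the labels' protocols, RNA was depleted of ribosomal RNA and made into directional libraries. The authors deposited raw counts for each gene symbol, with no normalization. The alignment used HISAT2 and mm10, per the submitters' processing notes. Not given in the sources used here are the counter, its annotation, its strand setting and any filter. The 9 genes and all gene lists were chosen with earlier results of these data known.

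Genes were kept with filterByExpr (minimum count 10, minimum total 15), scaled by TMM and tested on all 17169 genes with edgeR 4.0.16 in R 4.3.3 (glmQLFit and glmQLFTest, two-sided, 2 residual degrees of freedom, Benjamini-Hochberg adjustment). A standard error is the coefficient divided by the root of F. CPM uses the scaled totals. CPM per kb uses the union of exons in GENCODE, which need not be the authors' annotation. Coordinates, counted from 1, and upstream sequences are from RefSeq (GRCm38.p6). Protein sequences were not analysed here.

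Named were the 9 genes, Esr2, the called genes of each group (up to 4, or otherwise the gene with the smallest p) and the 5 nearest profiles. Nr3c2, Nr3c1, Zbtb16, Per1, Klf15, Fkbp5, Serpine2, Atp12a, Kcne3, Slc9a3, Cdx2, Krt8, Krt20, Cdh1, Cdx1, Elf3, Hoxa11, Hoxb13, Hoxd12 and Hoxd13, and the kidney genes, were named after their values were seen. The alternatives were 3 other scalings, 2 other filters, DESeq2 1.42.0 with and without the filter (the former added after seeing the data), limma-voom (3.58.1), a block for the replicate number, leaving out each library in turn, and leaving out the acinar genes. The procedure was tested on simulated data for this comparison over 17169 genes, where 41% of 100 genes changed 2-fold and 92% of 100 changed 4-fold were called, and 5 of 138 calls were unchanged genes. The changed genes were drawn from well-counted genes only. Each simulated gene had the typical spread of genes at its level, and no simulated library was rich in acinar counts. These shares need not hold for the real libraries or for genes with a wider spread, such as Scnn1g.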

Additional observations from a re-analysis of the deposited data

How the results depend on the processing

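Among all genes, 462 of 17169 passed the threshold, 695 of 17169 with library totals, and 1916 of 25515 with no low-count filter. With DESeq2 on all 25515 genes with a count, where test, scaling and filter change together, 1693 passed. DESeq2 on the filtered genes, added after seeing the data, gave 1730, and leaving out each library gave 165 (without WT 1) to 1804 (without Esr2-KO 1). Of the 9 genes 2 passed, 1 with upper-quartile factors (Scnn1a), 1 with library totals (Scnn1g), 4 with no filter (Hsd11b2, Scnn1a, Scnn1b and Scnn1g) and 4 with DESeq2 under either filter (Atp1b1, Hsd11b2, Scnn1a and Scnn1b), and 0 to 4 with each library left out. Of the 77 other listed genes tested, 3 passed, and 5 of 77 with limma-voom. With no filter 20 of 80 passed. DESeq2 gave 18 of 80 on all genes with a count and 18 of 77 on the filtered genes. Samples sharing a replicate number did not deviate together (correlation -0.06 over 17169 genes), and with the replicate block 490 of all genes passed, 1 of the 9 (Scnn1g) and 4 of the 77. Signs turned for Sgk1 (0.08 without WT 1, 0.35 without Esr2-KO 1), Prss8 (-0.13 with library totals, -0.071 without WT 2, -0.065 without Esr2-KO 2), Tsc22d3 (-0.012 with library totals), Esr2 (0.04 without WT 1, 0.35 without Esr2-KO 1) and Fkbp5 (-0.28 without Esr2-KO 2). With each library left out in turn, Sgk1 ran from -0.84 to 0.35, Prss8 from -0.071 to 0.20, Esr2 from -1.42 to 0.35 and Fkbp5 from -0.28 to 2.97. Scnn1a ran from 0.54 to 0.84 and Scnn1b from 1.03 to 1.40 on the log2 scale over 14 alternatives, of which 5 ended the call of Scnn1a and 6 that of Scnn1b. Where a left-out library leaves 1 sample, that sample is assumed to vary like the other group. The causes were not tested. The arm of the corticosteroid element was found in 19.0% of the windows when all 300 bases were searched. With 1 and 36 counts in WT, counting error on Scnn1g is wide.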

Other observations

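Within 500 kb on either side of Scnn1g and Scnn1b, 13 other genes were tested. Of these 0 passed the threshold (edgeR), beside 2.69% of all genes, a share at which so few genes would seldom include a call. Their log2 fold changes ran from -1.23 to 0.55 with a median of -0.06. An unadjusted p under 0.05 was found for 3, and the share of all genes under that cutoff was not counted. The groups did not overlap for 7 of the 13, where 54.7% of all genes tested did not overlap.

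The acid-sensing channels, relatives of ENaC in the same protein superfamily, were scarce in these libraries. Of 5 listed, 4 were tested and 0 passed, beside 2.69% of all genes (0 at an unadjusted p under 0.05). Asic3, a sensor of protons in sensory neurons, had 3 counts in WT 1, 11 in WT 2, then 7 and 25 in the Esr2-KO libraries. The groups overlapped (log2 fold change 1.49 ± 1.0, SE).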
